A study of Mus musculus with 12 samples.

Results

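The comparison described here set the 2 dental tissues that hold odontogenic potential, the E11.5 dental epithelium and the E13.5 dental mesenchyme, against the 2 that lack it, the E11.5 dental mesenchyme and the E13.5 dental epithelium. It used all 12 libraries of the series, 3 in each of the 4 groups, and of 34347 genes listed 22110 had enough counts to be tested. Embryos were wild-type C57BL/6 mice with no treatment. Per the study's methods, the younger embryos gave mandibles and the older ones tooth germs, and the tissues were parted with dispase, so that stage and the piece dissected cannot be told apart. The labels number biological replicates and also speak of pooled RNA, and the sources do not say whether both tissues of a number came from the same embryos. The p-values therefore measure the spread between these libraries.

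Odontogenic potential is the capacity of a tissue to instruct tooth formation in a partner tissue that has not formed teeth. In the mouse it lies first in the oral epithelium and passes to the condensing mesenchyme by the bud stage, through signals exchanged by the BMP, FGF, WNT and hedgehog families. Proteoglycans, core proteins that carry glycosaminoglycan chains, bind many of these ligands at the cell surface and in the matrix.

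The contrast added the log2 difference of epithelium over mesenchyme at E11.5 to the log2 difference of mesenchyme over epithelium at E13.5. It is the interaction of tissue and stage, positive for a gene that is high in E11.5 epithelium, high in E13.5 mesenchyme, low in E11.5 mesenchyme or low in E13.5 epithelium. A positive contrast alone thus does not say that a gene was higher in the holding tissue at both stages, and the difference at each stage is given beside it. Levels are in FPKM, fragments normalised to transcript length and to the mapped fragments of the library, and genes with an adjusted p below 0.05 are named called.

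The estimated counts summed to 70134554 in the smallest library and to 79349382 in the largest. One library stood apart in its epithelial and mesenchyme markers. E13.5 epithelium replicate 3 had a summed level of the 25 epithelial keratin and junction genes of 858 FPKM, against 2889 and 4190 FPKM in replicates 1 and 2, and a summed level of 20 mesenchyme markers of 1431 FPKM, against 582 and 389 FPKM. Fos, an immediate early gene, stood at 227 FPKM in it and at 17.7 FPKM in replicate 1. The difference was smaller over the whole list of 16 immediate early and heat shock genes. These summed to 1425 FPKM in replicate 3, against 625 and 640 FPKM in replicates 1 and 2. The main counts below are given with this library and without it. As a check of the labels, Krt14, the basal keratin, was at 46.9, 48.2 and 23.0 FPKM in E11.5 epithelium, against 1.84, 3.73 and 4.18 FPKM in E11.5 mesenchyme, whereas the 20 mesenchyme markers summed to 612, 600 and 476 FPKM in E11.5 epithelium, against 664, 782 and 841 FPKM in E11.5 mesenchyme. None of these 20 markers passed the test at E11.5 over 12 libraries. E11.5 epithelium replicates 1 and 2 were the closest pair of the series. Their median difference was 3.42% over 5832 genes of high count, against 4.07% for the next closest pair. By this measure E13.5 epithelium replicate 3 was not alone. It differed from its replicates 1 and 2 by 16.2% and 19.4%, and E11.5 epithelium replicate 3 from its own by 19.78% and 19.97%. In mesenchyme, replicate 1 differed from replicates 2 and 3 by 12.4% and 15.7% at E13.5 and 10.2% and 11.7% at E11.5. Replicates 2 and 3 of mesenchyme differed by 6.69% at E13.5 and 4.07% at E11.5.

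Over 12 libraries 42 genes were higher in the holding tissues (0.19% of those tested) and 3 were lower (0.0136%). At an unadjusted p under 0.05 these numbers were 1965 (8.89%) and 1354 (6.12%), and the median contrast of all genes tested was 0.02. Without E13.5 epithelium replicate 3, 23092 genes were tested, of which 2126 were higher (9.21%) and 970 lower (4.2%), and at an unadjusted p under 0.05 3867 (16.7%) and 2457 (10.6%). All 42 and all 3 genes were among them. The replicate left out has no number in its library name, like E11.5 epithelium replicate 3 and replicate 1 of both mesenchyme groups. The study's quality table lists a higher share of valid reads for these libraries than for the numbered ones. Without the replicate, E13.5 epithelium holds numbered libraries alone while the other groups are mixed. What this does to the numbers without the replicate was not tested. The number of higher genes moved by over 1.5 times with other libraries as well. It was 106 without E11.5 epithelium replicate 3, and between 14 and 22 without E11.5 epithelium replicate 1 or 2, E13.5 mesenchyme replicate 2 or 3, E11.5 mesenchyme replicate 2 or 3, or E13.5 epithelium replicate 1. In every one of the 12 fits that left out 1 library, 14 of the 45 genes were called. With the 2 numbered libraries of each group averaged, an alternative added after seeing the data, edgeR called 0 genes in either direction (776 higher and 200 lower at an unadjusted p under 0.05).

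**Figure D1:**
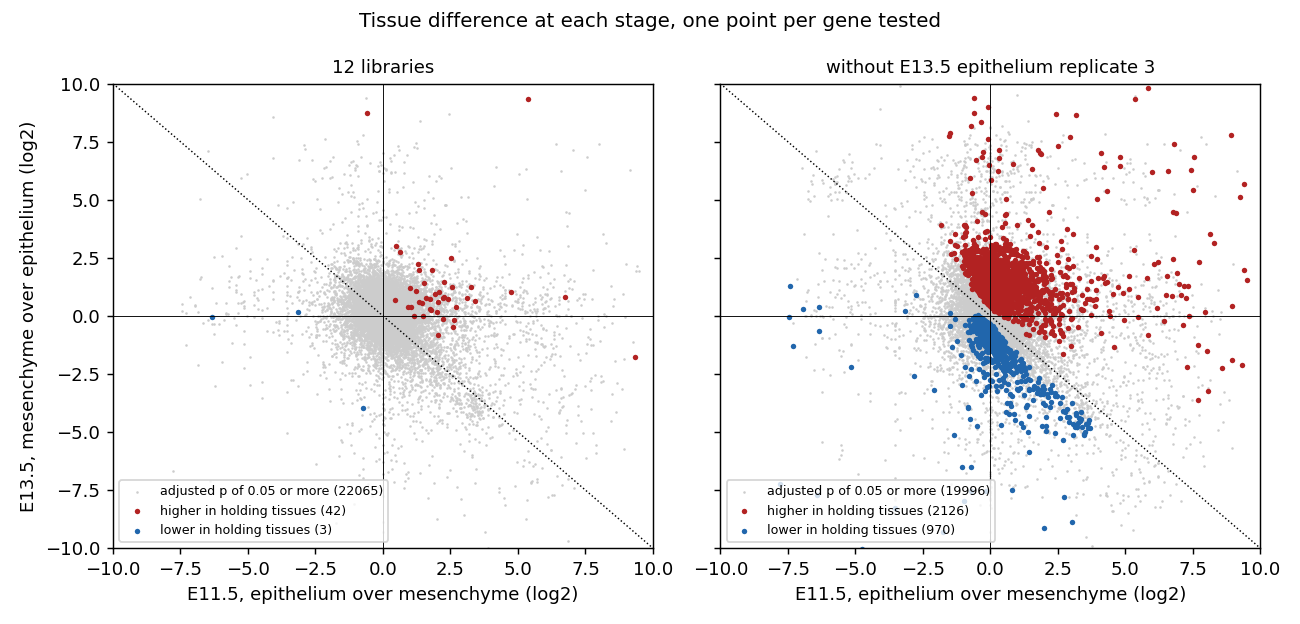
Each point is a gene tested, with the log2 difference of epithelium over mesenchyme at E11.5 on the x axis and of mesenchyme over epithelium at E13.5 on the y axis, over 12 libraries (left) and without E13.5 epithelium replicate 3 (right), each axis cut at 10. Genes higher in the holding tissues are red (42 left, 2126 right) and genes lower are blue (3 left, 970 right), and the dotted line marks a contrast of 0.

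The 4 marker genes were all higher in the holding tissues, but in different ways. Dok5 passed the test at each stage as well, Gpc4 and Spock2 passed it at E11.5 and had smaller E13.5 parts that did not pass, and Nell2 owed all of its contrast to E11.5. Dok5 encodes a docking protein of receptor tyrosine kinase signalling (chromosome 2, 170731807 to 170879769 of mm10, plus strand). It was at 4.48, 4.84 and 4.59 FPKM in E11.5 epithelium and at 5.06, 6.25 and 7.21 FPKM in E13.5 mesenchyme, against 0.934, 1.13 and 0.985 FPKM in E11.5 mesenchyme and 2.73, 3.48 and 4.17 FPKM in E13.5 epithelium. All 6 holding libraries lay above all 6 lacking libraries. The contrast was 3.02 ± 0.29 (SE, adjusted p = 0.00166), with 2.24 at E11.5 (adjusted p = 0.000457) and 0.79 at E13.5 (adjusted p = 0.0326).

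Gpc4 encodes a glypican, a heparan sulfate proteoglycan anchored to the cell membrane (chromosome X, 52053021 to 52165252, minus strand). It was at 8.64, 9.92 and 12.4 FPKM in E11.5 epithelium, against 5.31, 5.34 and 5.02 FPKM in E11.5 mesenchyme, and at 26.9, 28.9 and 26.0 FPKM in E13.5 mesenchyme, against 17.1, 19.8 and 23.8 FPKM in E13.5 epithelium. The groups did not overlap at either stage, but both E13.5 tissues were above both E11.5 tissues. The contrast was 1.42 ± 0.22 (SE, adjusted p = 0.029), the E13.5 part of 0.39 missed the threshold (adjusted p = 0.133), and the call held in 4 of the 12 fits that left out 1 library. Without E13.5 epithelium replicate 3 the contrast was 1.56 (adjusted p = 0.000949) and the E13.5 part 0.53 (adjusted p = 0.0228).

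Spock2 encodes testican-2, a secreted proteoglycan (chromosome 10, 60106219 to 60135198, plus strand). It was at 4.22, 4.61 and 1.78 FPKM in E11.5 epithelium, against 0.715, 0.455 and 0.511 FPKM in E11.5 mesenchyme, and at 4.69, 5.15 and 4.55 FPKM in E13.5 mesenchyme, against 3.29, 3.53 and 3.93 FPKM in E13.5 epithelium. The groups did not overlap at either stage, although E11.5 epithelium replicate 3 lay below all 3 E13.5 epithelium libraries. The contrast was 3.08 ± 0.43 (SE, adjusted p = 0.0152), of which 2.70 came from E11.5, and the E13.5 part of 0.38 ± 0.30 (SE) missed the threshold (adjusted p = 0.447). Its call held in 8 of the 12 fits that left out 1 library.

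Nell2 encodes a secreted glycoprotein with EGF-like repeats that guides axons (chromosome 15, 95075230 to 95528559, minus strand). It was at 7.14, 7.27 and 6.98 FPKM in E11.5 epithelium and at 6.88, 6.49 and 6.66 FPKM in E13.5 mesenchyme, against 1.56, 1.63 and 1.52 FPKM in E11.5 mesenchyme and 7.44, 7.83 and 6.18 FPKM in E13.5 epithelium. Only the E11.5 mesenchyme stood apart, and the E13.5 tissues overlapped. The contrast of 2.09 ± 0.16 (SE, adjusted p = 0.000186) thus consisted of an E11.5 part of 2.23 and an E13.5 part of -0.14 ± 0.11 (SE, adjusted p = 0.456). It was called in all 12 fits that left out 1 library.

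**Figure D2:**
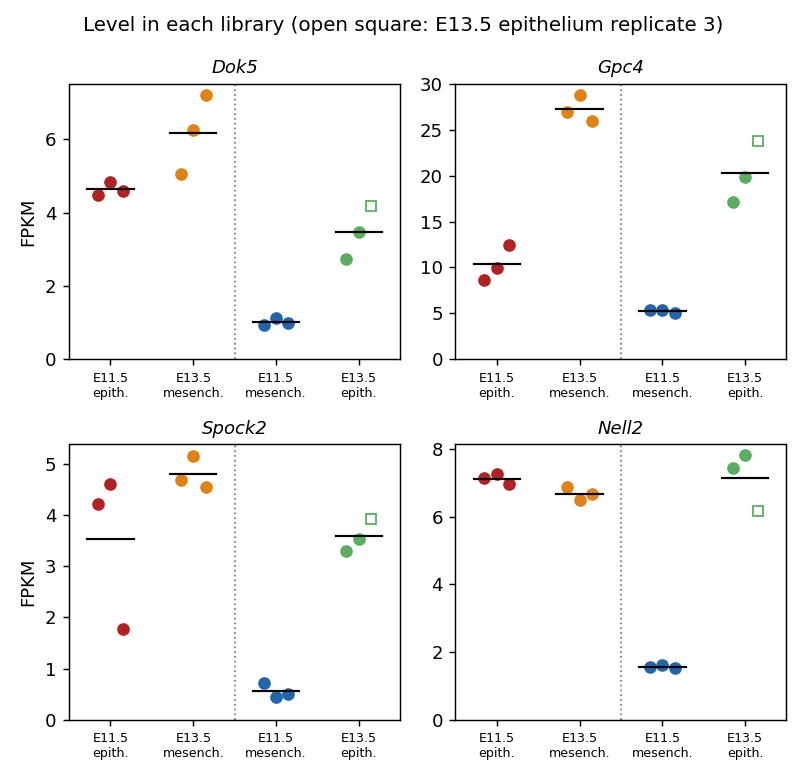
FPKM (y axis, linear from 0) of the 4 marker genes in each of 12 libraries, with the holding tissues left and the lacking tissues right of the dotted line, bars at the group means and E13.5 epithelium replicate 3 as an open square. Dok5 is above 4.4 FPKM in all 6 holding libraries and below 4.2 FPKM in all 6 lacking libraries, whereas Nell2 is low in E11.5 mesenchyme alone.

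The start regions of 6 genes are shown so that genes of different pattern can be read side by side, namely those of the markers Gpc4 and Spock2, of Akap6, Garem2 and Insc, which passed the test at both stages and are described next, and of Aqp3, a gene that went the other way. Each is the RefSeq sequence (GRCm38.p6) from 250 bases before to 50 bases after the RefSeq start of the gene, written along the gene's strand, with every match to the GC box GGGCGG and the TATA box TATAAA, on either strand, in capitals. The RefSeq start can differ from the start in the deposited gene coordinates. The regions of Gpc4 and of Insc (deposited as 114743694 to 114850380) lie wholly inside the deposited genes and hold no base before the deposited start. The regions are chrX:52164874-52165173, minus strand for Gpc4, chr10:60106007-60106306, plus strand for Spock2, chr12:52699133-52699432, plus strand for Akap6, chr5:30104946-30105245, plus strand for Garem2, chr7:114745516-114745815, plus strand for Insc and chr4:41098134-41098433, minus strand for Aqp3.
Gpc4: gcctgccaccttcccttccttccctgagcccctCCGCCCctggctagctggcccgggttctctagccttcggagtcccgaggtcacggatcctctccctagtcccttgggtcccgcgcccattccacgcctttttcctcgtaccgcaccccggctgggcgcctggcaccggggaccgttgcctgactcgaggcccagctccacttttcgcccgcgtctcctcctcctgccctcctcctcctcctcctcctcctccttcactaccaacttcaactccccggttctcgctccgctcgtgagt
Spock2: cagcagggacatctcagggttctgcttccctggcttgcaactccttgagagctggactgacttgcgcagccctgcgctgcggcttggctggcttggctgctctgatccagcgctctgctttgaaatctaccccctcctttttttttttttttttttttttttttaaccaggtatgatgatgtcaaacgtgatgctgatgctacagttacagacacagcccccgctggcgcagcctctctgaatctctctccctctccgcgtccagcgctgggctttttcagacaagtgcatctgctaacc
Akap6: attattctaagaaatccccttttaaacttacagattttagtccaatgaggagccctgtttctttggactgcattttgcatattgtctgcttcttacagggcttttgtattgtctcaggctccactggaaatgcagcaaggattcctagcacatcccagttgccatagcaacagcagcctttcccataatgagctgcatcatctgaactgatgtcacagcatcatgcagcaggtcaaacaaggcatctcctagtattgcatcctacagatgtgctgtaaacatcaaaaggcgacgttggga
Garem2: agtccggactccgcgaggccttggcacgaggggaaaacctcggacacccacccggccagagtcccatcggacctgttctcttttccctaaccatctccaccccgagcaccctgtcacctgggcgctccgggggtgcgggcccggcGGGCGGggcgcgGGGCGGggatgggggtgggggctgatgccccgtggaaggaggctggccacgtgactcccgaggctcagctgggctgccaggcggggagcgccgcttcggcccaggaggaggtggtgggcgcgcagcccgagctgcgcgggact
Insc: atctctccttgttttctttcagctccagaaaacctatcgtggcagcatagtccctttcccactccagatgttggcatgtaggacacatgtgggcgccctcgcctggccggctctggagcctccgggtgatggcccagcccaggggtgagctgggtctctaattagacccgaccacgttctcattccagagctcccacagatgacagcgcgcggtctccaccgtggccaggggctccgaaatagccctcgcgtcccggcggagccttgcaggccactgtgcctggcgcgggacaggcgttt
Aqp3: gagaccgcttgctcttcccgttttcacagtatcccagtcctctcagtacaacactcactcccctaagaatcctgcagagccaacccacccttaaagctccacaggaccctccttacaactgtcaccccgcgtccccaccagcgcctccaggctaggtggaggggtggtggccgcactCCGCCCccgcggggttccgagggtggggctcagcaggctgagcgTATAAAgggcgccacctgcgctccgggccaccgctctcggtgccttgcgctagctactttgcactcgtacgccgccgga
Gpc4 held 1 GC box and Garem2 held 2, Aqp3 held 1 GC box and 1 TATA box, and Spock2, Akap6 and Insc held neither. A match is a description of the letters and no evidence of a bound factor. Of the 45 called genes 33 had an entry, with 46 start regions, of which 23 held a GC box (50%) and 8 a TATA box (17.4%). Among all 32851 start regions the shares were 35.7% and 13.6%.

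Genes that were higher in the holding tissue at both stages were the ones whose tissue preference crossed over. At an unadjusted p under 0.05 at each stage, 179 genes crossed towards the holding tissues (0.81% of those tested) and 30 the other way (0.136%). Without E13.5 epithelium replicate 3 the numbers were 398 (1.72%) and 130 (0.563%), and 161 of the 179 and 28 of the 30 were among them. Among the other 11 libraries, the 179 became 106 to 126 when E11.5 epithelium replicate 1 or 2, E13.5 mesenchyme replicate 2 or 3, or E13.5 epithelium replicate 1 or 2 was left out. The 30 became 176 without E11.5 epithelium replicate 3, 54 without E13.5 mesenchyme replicate 1, and 12 to 19 without each of 9 further libraries. At an adjusted p under 0.05 at each stage 9 genes crossed towards the holding tissues (0.0407%), among them Dok5, Rfx4, Akap6, Garem2, Insc, Clic6, Tent5a and Actg2, and 0 the other way. Without E13.5 epithelium replicate 3 these numbers were 103 (0.446%) and 9 (0.039%). The tissues of each stage did not overlap in 244 genes towards the holding tissues (1.1%) and in 98 the other way (0.443%), and without the replicate in 508 (2.2%) and 410 (1.78%). In 39 genes (0.176%) all 6 holding libraries were above all 6 lacking libraries, and 8 of these were called. In 16 genes (0.0724%) they were all below.

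Rfx4, a transcription factor of neural development, had nearly the same difference at both stages. It was at 0.372, 0.343 and 0.222 FPKM in E11.5 epithelium and 0.250, 0.222 and 0.390 FPKM in E13.5 mesenchyme, against 0.0622, 0.0552 and 0.0479 FPKM in E11.5 mesenchyme and 0.0668, 0.0426 and 0.0348 FPKM in E13.5 epithelium. The 6 holding libraries were all above the lacking ones, with an E11.5 part of 2.51 and an E13.5 part of 2.50 (contrast 5.00 ± 0.55 SE, adjusted p = 0.00422), yet at a level under 1 FPKM in every library.

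Akap6 encodes a protein that anchors protein kinase A. It was at 0.565, 0.559 and 0.422 FPKM in E11.5 epithelium and 0.529, 0.560 and 0.726 FPKM in E13.5 mesenchyme, against 0.0761, 0.0468 and 0.0406 FPKM in E11.5 mesenchyme and 0.224, 0.153 and 0.370 FPKM in E13.5 epithelium. Again no lacking library reached a holding one (contrast 4.49 ± 0.49 SE, adjusted p = 0.00422). Rfx4 and Akap6 were called in all 12 fits that left out 1 library, as were Aldh1a3, Ednrb, Vgll3, Srgap3 and Clec11a, described below. Other calls described below held in fewer of these fits. They held in 11 for Plcd1 and Tagln, 9 for Atp1b1, 8 for Sgms2, 7 for Slc36a2, and 6 for Insc, Gdnf and Nt5e. The number was 5 for Garem2, Mgp and Nfasc, and 4 for Lamc3, Fabp7, Igfbp5 and Gm45837. It was 3 for Scn9a and 2 for Aqp3, Sptssb and Ocstamp.

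Garem2, an adaptor of growth factor signalling to ERK, was at 1.26, 1.41 and 0.639 FPKM in E11.5 epithelium and 0.415, 0.469 and 0.722 FPKM in E13.5 mesenchyme, against 0.261, 0.266 and 0.187 FPKM in E11.5 mesenchyme and 0.151, 0.148 and 0.261 FPKM in E13.5 epithelium. The 6 holding libraries were the higher ones (contrast 3.70, adjusted p = 0.0176). Part of a Garem2 exon is shared with Hadha on the opposite strand, and whether the counting used strand is not given in the sources used here, so that its reads are not certain. Insc, which orients the mitotic spindle, was at 1.08, 0.915 and 0.376 FPKM in E11.5 epithelium, against 0.267, 0.224 and 0.204 FPKM in E11.5 mesenchyme, and at 2.36, 2.79 and 1.95 FPKM in E13.5 mesenchyme, against 0.430, 0.476 and 0.828 FPKM in E13.5 epithelium. The groups did not overlap at either stage (contrast 3.79, adjusted p = 0.0187).

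Gdnf, a neurotrophic ligand that signals through Ret with the co-receptor Gfra1, was at 0.880, 0.938 and 0.975 FPKM in E11.5 epithelium and 0.787, 1.39 and 1.16 FPKM in E13.5 mesenchyme, against 0.131, 0.137 and 0.221 FPKM in E11.5 mesenchyme and 0.317, 0.272 and 0.756 FPKM in E13.5 epithelium. All 6 holding libraries were above the lacking ones, with the E13.5 epithelium replicate that stood apart the nearest to them (contrast 3.82, adjusted p = 0.0213). Lamc3, a laminin chain of basement membranes, showed the same separation of 6 from 6 libraries, with a contrast of 3.54 (adjusted p = 0.0281). The E13.5 part of 2.23 passed the test, and the E11.5 part of 1.31 did not (adjusted p = 0.0959). Slc36a2, an amino acid transporter, was listed at 0 in all 6 lacking libraries, at 0.0081, 0.0133 and 0.0264 FPKM in E11.5 epithelium and at 0.181, 0.410 and 0.256 FPKM in E13.5 mesenchyme, levels so low that no fold is given.

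Among genes of at least 5 FPKM in a group, Aldh1a3, Ednrb, Atp1b1 and Plcd1, like Gpc4, did not overlap between the tissues of either stage. Aldh1a3, which makes retinoic acid, was at 1.55, 1.58 and 1.06 FPKM in E11.5 epithelium, against 0.314, 0.493 and 0.477 FPKM in E11.5 mesenchyme, and at 4.53, 5.59 and 5.67 FPKM in E13.5 mesenchyme, against 2.95, 2.47 and 3.77 FPKM in E13.5 epithelium. The groups did not overlap at either stage, the contrast was 2.50 ± 0.32 (SE, adjusted p = 0.0094), and the E13.5 part of 0.74 missed the threshold (adjusted p = 0.0563). The endothelin receptor gene Ednrb had a contrast of 1.94 ± 0.26 (SE, adjusted p = 0.0112). It was at 4.04, 4.20 and 2.80 FPKM in E11.5 epithelium, against 1.52, 1.40 and 1.57 FPKM in E11.5 mesenchyme, and at 6.71, 6.99 and 8.54 FPKM in E13.5 mesenchyme, against 5.11, 3.77 and 5.35 FPKM in E13.5 epithelium. Atp1b1, a subunit of the sodium pump, and Plcd1, a phospholipase C, had contrasts of 1.99 and 1.29, with E13.5 parts of 0.54 and 0.38 that missed the adjusted threshold. Mgp, an inhibitor of matrix calcification, had a contrast of 3.08, and its E13.5 tissues met at 7.16 FPKM, the level of the lowest mesenchyme and of the highest epithelium library. Exons of Atp1b1 overlap Nme7 on the opposite strand.

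Of the 42 higher genes 23 were higher in the holding tissue at both stages at an unadjusted p under 0.05, 14 at E11.5 alone, 3 at E13.5 alone, and 2 were higher at E11.5 and lower at E13.5. Their median E11.5 part was 1.97 and their median E13.5 part 0.77, and between the stages their median change was 3.05 in mesenchyme and 0.36 in epithelium. In 10 of them mesenchyme rose while epithelium fell from E11.5 to E13.5, and in 20 both tissues rose, at an unadjusted p under 0.05. The make-up was the other way round without E13.5 epithelium replicate 3. Of the 2126 higher genes then 392 were higher in the holding tissue at both stages, 223 at E11.5 alone, 1228 at E13.5 alone, and in 283 the stages were opposed, with a median E11.5 part of 0.11 and a median E13.5 part of 1.303. Of the 970 lower genes 125 were lower at both stages, 51 at E11.5 alone, 564 at E13.5 alone and 230 were opposed. Of the 42, 15 reached a mean of 5 FPKM in at least 1 group and 13 stayed under 1 FPKM in all 4. Single-stage tests called 761 genes higher (3.44%) and 83 lower (0.375%) in epithelium at E11.5, and 706 genes higher (3.19%) and 1319 lower (5.97%) in mesenchyme at E13.5. At an unadjusted p under 0.05 the E11.5 shares were 11.2% and 4.69%, and the E13.5 shares 13.1% and 14.3%. Without E13.5 epithelium replicate 3 the E11.5 calls were 1179 (5.11%) and 308 (1.33%) and the E13.5 calls 3191 (13.8%) and 2813 (12.2%), with unadjusted shares of 12.7% and 7.08%, and of 18.7% and 17.7%.

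The 14 genes that passed an unadjusted p of 0.05 at E11.5 alone all had their lowest group mean in E11.5 mesenchyme. Besides Nell2 and Spock2 they were Vgll3, Srgap3, Fndc1, Lrrtm1, Tagln, Nt5e, Nfasc, Fabp7, Scn9a, Cadps, Kcna2 and Adh7. Vgll3, a cofactor of TEAD transcription factors, was at 1.91, 1.91 and 2.04 FPKM in E11.5 epithelium, against 0.581, 0.821 and 0.790 FPKM in E11.5 mesenchyme, and at 9.10, 9.01 and 11.1 FPKM in E13.5 mesenchyme, against 8.80, 9.30 and 10.3 FPKM in E13.5 epithelium. The E13.5 tissues overlapped, and the contrast of 1.47 ± 0.18 (SE, adjusted p = 0.00715) was the E11.5 difference of 1.48. Srgap3, a GTPase-activating protein downstream of Slit and Robo, likewise had a contrast of 1.14 with an E11.5 part of 1.15 and an E13.5 part of -0.01 ± 0.09 (SE). Tagln, an actin-binding protein of smooth muscle whose exons overlap other genes, had a contrast of 2.07 with parts of 1.76 and 0.31 ± 0.19 (SE). Nt5e, the ecto-enzyme CD73, had a contrast of 2.11 with parts of 2.58 and -0.47 ± 0.22 (SE).

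In 2 of the 42 genes the E13.5 difference ran against the contrast at an unadjusted p under 0.05 over 12 libraries. By point estimates alone, both stage differences had the direction of the contrast in 34 of the 42. Without E13.5 epithelium replicate 3 the E13.5 parts of Nell2 (-0.22) and Nt5e (-0.61) also ran against it at that threshold. Igfbp5, a secreted binding protein of insulin-like growth factors and the most abundant of the called genes, was at 152, 147 and 169 FPKM in E11.5 epithelium, against 29.8, 43.7 and 46.3 FPKM in E11.5 mesenchyme. In E13.5 mesenchyme its levels were 169, 173 and 170 FPKM, against 286, 343 and 259 FPKM in E13.5 epithelium. Epithelium was thus the higher tissue at both stages, without overlap (E11.5 part 2.02, E13.5 part -0.83, adjusted p = 7.52e-05 and 0.00492), and the positive contrast of 1.19 (adjusted p = 0.0396) came from the narrowing of that difference. Sptssb, a subunit of the enzyme that starts sphingolipid synthesis, was listed at 0 in all 3 E11.5 mesenchyme libraries, and in E13.5 it was at 0.141, 0.186 and 0.244 FPKM in mesenchyme, against 0.984, 0.641 and 0.257 FPKM in epithelium.

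Clec11a, Sgms2 and Ocstamp were higher in the holding tissue at E13.5 and missed an unadjusted p of 0.05 at E11.5. Clec11a, a secreted growth factor of bone-forming cells, was at 3.91, 6.41 and 3.74 FPKM in E13.5 mesenchyme, against 0.406, 0.487 and 0.795 FPKM in E13.5 epithelium, and at 0.224, 0.267 and 0.165 FPKM in E11.5 epithelium, against 0.155, 0.177 and 0.154 FPKM in E11.5 mesenchyme. E13.5 mesenchyme was the one high group (contrast 3.49 ± 0.46 SE, adjusted p = 0.0113, E11.5 part 0.48). Sgms2, a sphingomyelin synthase, was at 6.89, 7.72 and 4.15 FPKM in E13.5 mesenchyme, against 0.766, 0.826 and 1.15 FPKM in E13.5 epithelium, and at 0.226, 0.230 and 0.495 FPKM in E11.5 epithelium, against 0.216, 0.221 and 0.202 FPKM in E11.5 mesenchyme. The Sgms2 tissues did not overlap at either stage, and the contrast of 3.36 ± 0.47 (SE, adjusted p = 0.0156) held an E11.5 part of 0.62. Ocstamp was listed at 0 in all 3 E13.5 epithelium libraries and was under 0.3 FPKM elsewhere. Unlike those of Clec11a and Sgms2, its E11.5 part of -0.60 ± 0.61 (SE) ran against the contrast.

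Among the 3 genes lower in the holding tissues, Aqp3 and the predicted gene Gm45837 each set a single group apart. Aqp3, a water and glycerol channel of stratified epithelia, was at 0.676, 0.307 and 0.609 FPKM in E11.5 epithelium and 0.716, 0.591 and 0.887 FPKM in E13.5 mesenchyme, against 0.568, 1.02 and 1.21 FPKM in E11.5 mesenchyme and 12.3, 18.7 and 2.66 FPKM in E13.5 epithelium. It was high in E13.5 epithelium alone, least in the replicate that stood apart (contrast -4.71 ± 0.80 SE, adjusted p = 0.0433). Gm45837 was low in E11.5 epithelium alone (contrast -6.39, adjusted p = 0.0425). Its exons overlap those of Pde2a and Arap1 on the same strand, so its counts are uncertain.

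**Figure D3:**
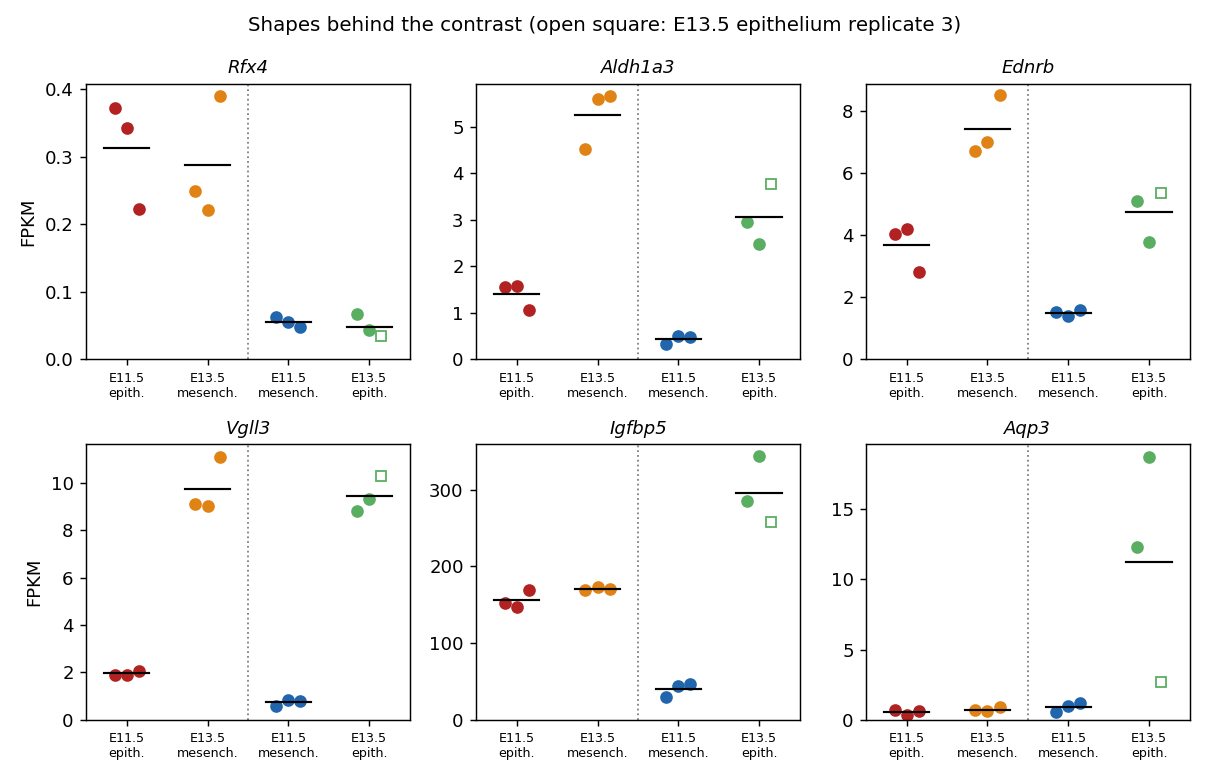
FPKM (y axis, linear from 0) of 6 called genes in each library, laid out as holding tissues left and lacking tissues right of the dotted line, with bars at group means and E13.5 epithelium replicate 3 as an open square. Rfx4 separates all 6 holding from all 6 lacking libraries, Aldh1a3 and Ednrb separate within each stage, Vgll3 is lower in E11.5 mesenchyme than in E11.5 epithelium with overlap at E13.5, Igfbp5 is highest in E13.5 epithelium and lowest in E11.5 mesenchyme, and Aqp3 is high in E13.5 epithelium alone.

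Most of the 25 gene lists had no call over 12 libraries and several without E13.5 epithelium replicate 3. The counts of list members without this replicate stand against 9.21% of all genes higher and 4.2% lower in that fit. The 25 epithelial keratins and junction genes were all higher in epithelium at both stages (adjusted p below 0.05), with median differences of epithelium over mesenchyme of 3.50 at the earlier stage and of mesenchyme over epithelium of -3.97 at the later one. Their median contrast was -0.40, against 0.02 for all genes, and 0 of 25 were called. Without the replicate the median was -0.81, against 0.04 for all genes, and 10 of 25 were lower. Krt5, a basal keratin, had contrasts of -1.20 over 12 libraries (adjusted p = 0.387) and -1.63 without the replicate (adjusted p = 0.0174), and Dsg2, a desmosomal cadherin, had -1.87 (adjusted p = 0.211) and -2.29 (adjusted p = 0.00202).

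The mesenchymal lists had positive median contrasts and negative median differences at E11.5. Of 20 mesenchyme markers 0 were called over 12 libraries (median contrast 0.83) and 16 were higher without the replicate (median 1.65), and of 26 fibrillar collagen and matrix genes 0 and then 23 were higher (medians 1.01 and 1.67). The median differences at E11.5 were -0.36 and -0.27. Col1a1, the main chain of type I collagen, was at 317, 464 and 402 FPKM in E13.5 mesenchyme, against 67.7, 45.8 and 220 FPKM in E13.5 epithelium, and at 37.5, 34.6 and 17.3 FPKM in E11.5 epithelium, against 26.8, 43.9 and 49.2 FPKM in E11.5 mesenchyme. The third E13.5 epithelium library lay nearest to the mesenchyme (contrast 1.42, adjusted p = 0.359, and 2.41 without it, adjusted p = 0.00533). Lox, which crosslinks collagen, had the larger contrasts of 2.28 (adjusted p = 0.143) and 3.21 (adjusted p = 0.000379), and of the collagen and matrix list 5 genes crossed at both stages at an unadjusted p under 0.05 without the replicate.

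The osteoblast markers summed to 572, 788 and 584 FPKM in E13.5 mesenchyme, against 82.7, 56.7 and 270 FPKM in E13.5 epithelium, and were at 105 FPKM or less in every E11.5 library. Of 11 osteoblast markers tested 0 were called over 12 libraries (median contrast 2.11), and 8 of 12 were higher without the replicate (median 2.72). Ibsp, a matrix protein of bone, was at 145, 201 and 95.9 FPKM in E13.5 mesenchyme, against 2.04, 0.212 and 10.4 FPKM in E13.5 epithelium, and under 0.2 FPKM in all 6 E11.5 libraries. The contrast was 6.93 ± 1.99 (SE, adjusted p = 0.159), and 8.88 (adjusted p = 0.00403) without the replicate. Sp7, the transcription factor of osteoblasts, had contrasts of 2.91 (adjusted p = 0.221) and 4.62 (adjusted p = 0.000975). The 12 cartilage markers gave 0 and then 9 higher genes, among them Col11a2 with contrasts of 2.33 (adjusted p = 0.161) and 3.29 (adjusted p = 0.000918). Smpd3, a neutral sphingomyelinase outside the lists, had 5.90 (adjusted p = 0.0665) and 7.45 (adjusted p = 0.000918).

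Most proteoglycans had positive contrasts, and few passed the test over 12 libraries. Of 37 core proteins 2 were called over 12 libraries, Gpc4 and Spock2, and 33 had a positive contrast (median 0.80). Without the replicate 15 were higher and 1 lower (median 1.14). All 9 proteoglycans and all 13 glycosaminoglycan enzymes that the study names as shifting had a positive contrast, with medians of 1.42 and 1.08, and 2 and 0 of them were called. Without the replicate 7 and 8 were called. The shift that the study describes, higher in epithelium at E11.5 and in mesenchyme at E13.5, is a crossing, which a positive contrast alone does not show. At an unadjusted p under 0.05 at each stage, 1 of the 9 and 0 of the 13 crossed so over 12 libraries (0.81% of all genes). Without the replicate 4 and 3 did (1.72% of all genes). The study chose both lists on these samples, so they are no independent evidence of direction. Ncan, a chondroitin sulfate proteoglycan, was at 1.38, 1.19 and 0.723 FPKM in E11.5 epithelium, against 0.331, 0.335 and 0.287 FPKM in E11.5 mesenchyme, and at 0.710, 0.561 and 0.577 FPKM in E13.5 mesenchyme, against 0.219, 0.0657 and 0.519 FPKM in E13.5 epithelium. All 6 holding libraries were above all 6 lacking libraries (contrast 2.98 ± 0.76 SE, adjusted p = 0.127, and 3.91 without the replicate, adjusted p = 0.00199). Among the enzymes at large, medians were 0.37 for 18 linkage and elongation genes, 0.39 for 20 of heparan sulfate modification and 0.33 for 11 of chondroitin and dermatan sulfate modification, and 0 of each were called over 12 libraries. Without the replicate 6, 9 and 3 were higher and 0 lower, where 9.21% of all genes were higher and 4.2% lower. Chst7, a chondroitin sulfotransferase, had 2.27 there (adjusted p = 0.00568).

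The ligands and transcription factors known from tooth signalling gave no call over 12 libraries. Of 23 ligand genes 0 were called (median contrast 0.51), and without the replicate 7 were higher and 1 lower (median 0.88), where 9.21% and 4.2% of all genes were. Over 12 libraries E11.5 epithelium exceeded mesenchyme in 11 of the 23 (3.44% of all genes), and E13.5 mesenchyme exceeded epithelium in 4 (3.19%) and was below it in 9 (5.97%). Bmp4, a ligand made by both tissues, was at 11.6, 10.3 and 8.26 FPKM in E11.5 epithelium, against 9.03, 13.7 and 15.0 FPKM in E11.5 mesenchyme, and at 14.0, 15.3 and 15.7 FPKM in E13.5 mesenchyme, against 4.96, 4.18 and 10.4 FPKM in E13.5 epithelium. The E11.5 tissues overlapped and the E13.5 tissues did not (contrast 0.89, adjusted p = 0.342, and 1.42 without the replicate, adjusted p = 0.00528). Of 18 epithelial factors 0 were called and of 22 mesenchymal factors 0 were called, with medians of -0.18 and 0.58. Without the replicate 14 of the 22 were higher, with Msx1, a homeobox factor of dental mesenchyme, at 2.14 (adjusted p = 0.00342) as against 1.07 over 12 libraries (adjusted p = 0.483), and their median difference at E11.5 was -0.60. Isl1, a homeobox factor of the incisor epithelium and of sensory neurons, was the 1 epithelial factor that was higher without the replicate, at 1.68 (adjusted p = 0.0245), although its E13.5 part was -1.29. Of 26 pathway targets and inhibitors 0 were called (median 0.21), and without the replicate 10 were higher and 4 lower. Of 26 basement membrane genes and matrix receptors 0 were called (median 0.22), and then 9 were higher and 3 lower, and of 16 immediate early and heat shock genes 0 and then 5 were higher.

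**Figure D4:**
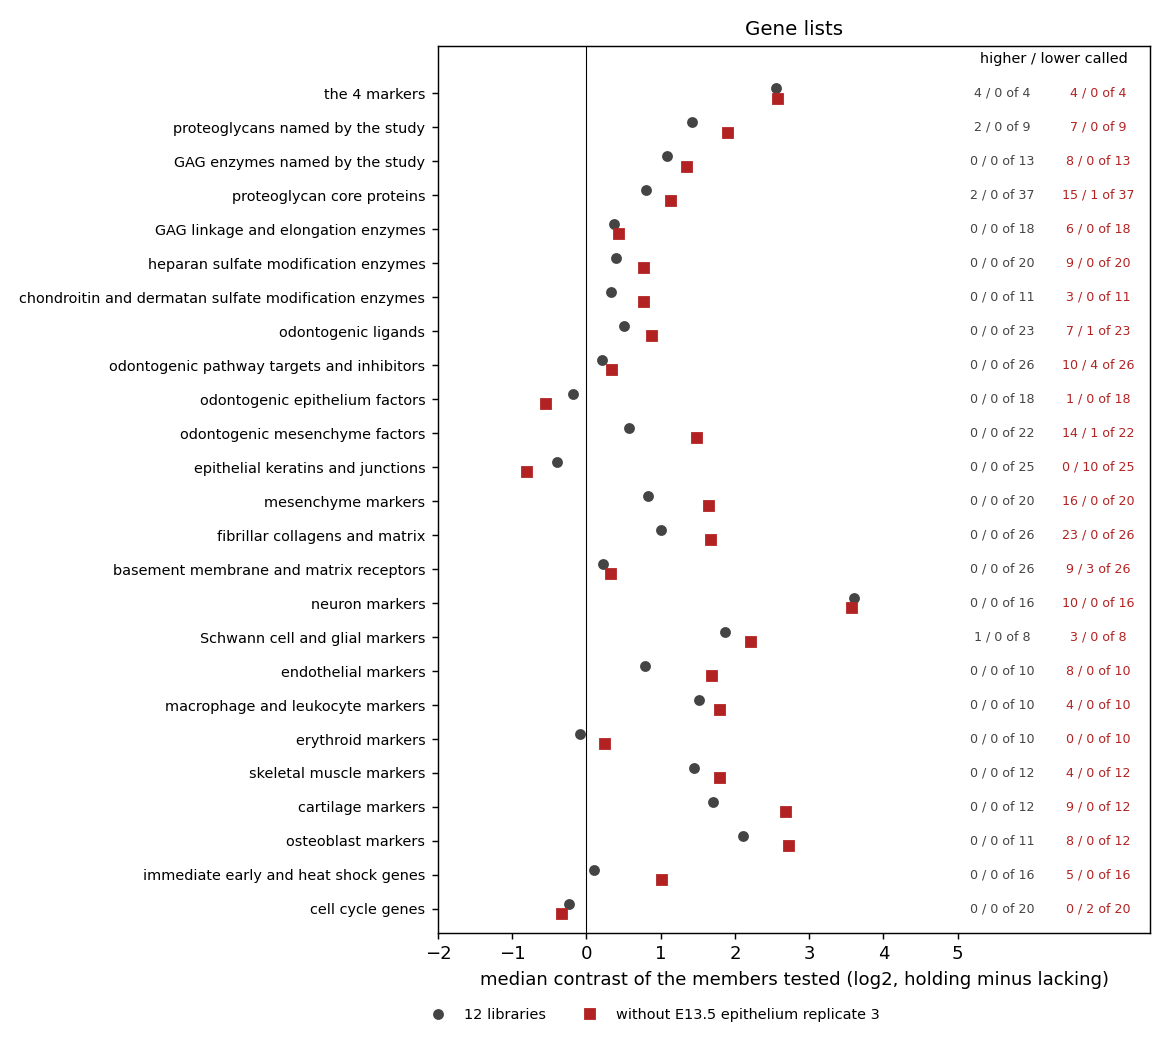
Median contrast (x axis, log2, holding minus lacking) of the members tested of each gene list (rows), over 12 libraries (grey circles) and without E13.5 epithelium replicate 3 (red squares), with the numbers of members called higher and lower at the right. Neuron markers have the highest median of the 25 lists in both fits (3.61 and 3.58) and epithelial keratins and junctions the lowest (-0.40 and -0.81).

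Of the 16 neuron markers 0 were called over 12 libraries, and of the 8 Schwann cell and glial markers 1, Fabp7, was called, where 0.19% of all genes were higher. These became 10 and 3 without E13.5 epithelium replicate 3, where 9.21% were higher. Fabp7, a fatty acid binding protein of glial precursors, was at 30.8, 31.3 and 11.9 FPKM in E11.5 epithelium, against 3.39, 2.12 and 1.63 FPKM in E11.5 mesenchyme, and at 4.69, 4.55 and 8.37 FPKM in E13.5 mesenchyme, against 4.15, 1.94 and 4.83 FPKM in E13.5 epithelium. E11.5 epithelium was the high group, and the E13.5 tissues overlapped (contrast 4.04 ± 0.64 SE, adjusted p = 0.0316). Scn9a, a sodium channel of sensory neurons, at 0.353, 0.334 and 0.0866 FPKM in E11.5 epithelium, against 0.0120, 0.0101 and 0.0066 FPKM in E11.5 mesenchyme, had a contrast of 5.77 (adjusted p = 0.04), and Nfasc, an adhesion molecule of axons and glia, had 2.46 (adjusted p = 0.0235). Scn9a and Nfasc belong to no list and were picked with their values in view. In all 3 the E13.5 part missed the threshold.

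The 16 neuron markers summed to 281, 279 and 88.7 FPKM in E11.5 epithelium and to 77.8, 88.2 and 134 FPKM in E13.5 mesenchyme, against 61.2, 48.0 and 51.2 FPKM in E11.5 mesenchyme and 57.9, 29.3 and 82.3 FPKM in E13.5 epithelium. E11.5 epithelium replicate 3 was much the lowest of its group. Over 12 libraries their median contrast was 3.61 and 15 of 16 were positive. At E11.5, 9 were called higher in epithelium, where 3.44% of all genes were. At E13.5, 0 were called in either direction, where 3.19% of all genes were higher and 5.97% lower in mesenchyme. A positive contrast with an unadjusted p under 0.05 was found in 14, and in 8.89% of all genes. Stmn2, a tubulin-binding protein of neurons, had contrasts of 4.87 (adjusted p = 0.0557) and 5.24 (adjusted p = 0.0058), and Pou4f1, a factor of sensory ganglia, had 5.44 (adjusted p = 0.101) and 6.25 (adjusted p = 0.0104). None of the 16 was at 0 in all 3 libraries of a group. The 8 Schwann cell and glial markers summed to 23.5 to 51.4 FPKM in E11.5 epithelium and 26.3 to 39.6 FPKM in E13.5 mesenchyme, against 8.61 to 11.3 FPKM in E11.5 mesenchyme and 26.2 to 31.2 FPKM in E13.5 epithelium. The share of nerve or ganglion tissue in these values was not tested, and in bulk RNA more cells of a type and more RNA per cell cannot be told apart.

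Markers of several other cell types had positive contrasts without a call over 12 libraries. The 10 macrophage and leukocyte markers all had a positive contrast (median 1.52), with 0 called over 12 libraries and 4 without the replicate, and the 12 skeletal muscle markers all had a positive contrast over 12 libraries (median 1.45), with 0 and then 4 called. Macrophage markers summed to 22.3 to 28.1 FPKM in E11.5 epithelium and 29.6 to 76.3 FPKM in E13.5 mesenchyme, against 11.8 to 18.8 FPKM in E11.5 mesenchyme and 20.9 to 37.9 FPKM in E13.5 epithelium. The 10 endothelial markers gave 0 and then 8 higher genes (medians 0.79 and 1.68). Erythroid markers, of which 0 of 10 were called in either fit, had medians of -0.08 and 0.25, and the 20 cell cycle genes all had a negative contrast over 12 libraries (median -0.24), with 0 and then 2 lower, Mki67 among them (-1.27, adjusted p = 0.0207). Hemgn, a nuclear protein of erythroid cells outside that list, was at 4.33, 3.83 and 3.41 FPKM in E11.5 epithelium and 0.134, 0.0654 and 0.0326 FPKM in E13.5 mesenchyme, against 6.19, 8.71 and 8.41 FPKM in E11.5 mesenchyme and 0.421, 0.310 and 0.132 FPKM in E13.5 epithelium, with contrasts of -2.83 (adjusted p = 0.0767) and -3.17 without the replicate (adjusted p = 0.00194). The part of these cell types in the results above was not tested.

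**Figure D5:**
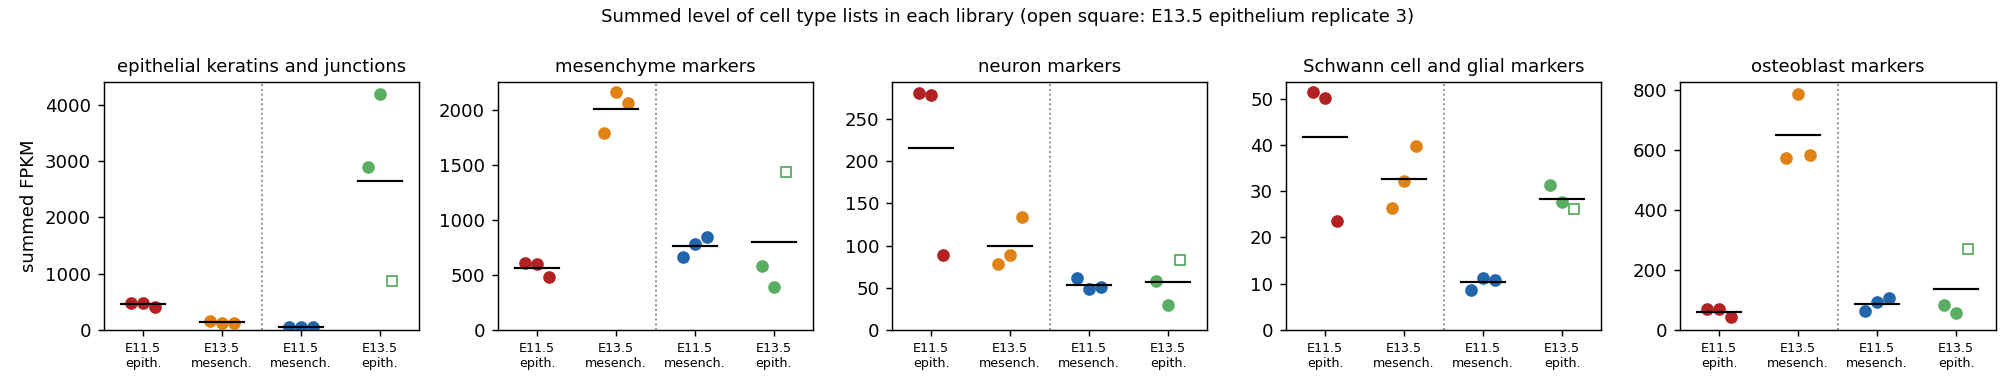
Summed FPKM (y axis, linear from 0) of 5 cell type lists in each library, holding tissues left and lacking tissues right of the dotted line, with bars at group means and E13.5 epithelium replicate 3 as an open square. That library has 858 FPKM of keratins and junctions and 1431 FPKM of mesenchyme markers, between the E13.5 mesenchyme and the other 2 E13.5 epithelium libraries in both.

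Over 12 libraries edgeR called few genes lower in the holding tissues, whereas without E13.5 epithelium replicate 3 there were 970, of which 643 reached a mean of 5 FPKM in a group. After Aqp3, genes of that level were taken by lowest unadjusted p of the contrast. Only genes lower in the holding tissue at both stages in point estimate were eligible, and predicted genes were left out. None of those taken was called over 12 libraries. They were Slc25a37, Car12, Mink1, Recql4, Hemgn, Tmem131l, Tfap2c, Brix1 and Etv4, with adjusted p of 0.0557 to 0.0878. All 9 were called lower without E13.5 epithelium replicate 3, and exons of Slc25a37, Mink1 and Recql4 overlap a gene on the opposite strand. Tfap2c, a transcription factor of surface ectoderm, was at 6.57, 6.19 and 5.99 FPKM in E11.5 epithelium and 2.61, 2.52 and 1.96 FPKM in E13.5 mesenchyme, against 6.44, 7.01 and 7.57 FPKM in E11.5 mesenchyme and 11.6, 14.6 and 3.93 FPKM in E13.5 epithelium. The E11.5 tissues overlapped, and the contrast was -2.23 (adjusted p = 0.0823) and -2.61 without the replicate (adjusted p = 0.000282). Etv4, a target of FGF signalling, was highest in E11.5 mesenchyme, at 14.1, 14.5 and 15.2 FPKM, and had contrasts of -0.84 (adjusted p = 0.0878) and -0.86 (adjusted p = 0.0132). Car12, a carbonic anhydrase, had -2.49 (adjusted p = 0.0653) and -2.86 (adjusted p = 0.000294), with E13.5 epithelium the one high group at 8.32, 8.91 and 2.63 FPKM.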

How the data were processed

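Poly(A) RNA of 12 libraries was sequenced as read pairs. Per the labels the reads were trimmed with Cutadapt, and the tools listed by the submitters, without their roles, are StringTie 1.3.4d, HISAT2 2.0.4 and edgeR, with mm10 as the build. The deposited table gives estimated counts in whole numbers and FPKM values made by the authors per transcript length and mapped fragments. The estimated counts exceed the read pairs, so counting error looks smaller than it is. Genes were filtered with filterByExpr, scaled by TMM and tested with edgeR 4.0.16 (glmQLFit and glmQLFTest, R 4.3.3) in 1 model of 4 groups, with Benjamini-Hochberg adjustment over all genes tested and a threshold of 0.05. The SE is the log2 value divided by the root of F. Fits with DESeq2 1.42.0, limma 3.58.1 (pseudocounts 0.5 and 0.1), other filters and scalings, and without each library were run.

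Named are the 4 markers, the 10 called genes per direction with the largest contrast at 5 FPKM or more (filled up by lowest p), up to 6 per direction without E13.5 epithelium replicate 3, and up to 4 members per list. The genes taken per direction also had to have both stage differences in the direction of the contrast. Predicted genes and clone names were left out of them. Other genes were picked with their values in view. The members and the 25 lists were chosen with earlier results of these data known. A few called genes are not reported here. RefSeq start regions and GENCODE M21 exons were used, with 91.3% of shared gene positions being equal to the table's.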

Additional observations from a re-analysis of the deposited data

Results flagged for a closer look

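The tissue effect differed between the stages, by the test of the stage-by-tissue term over 12 libraries, in 45 genes, and the contrast is that difference on the log2 scale. Values follow for those reported here, ordered by contrast and not by level or firmness of the call. Of the 42 higher genes 13 stayed under 1 FPKM in all 4 groups. Scn9a and Kcna2, with highest group means of 0.258 and 0.163 FPKM, were called in 3 and 2 of the 12 fits that left out 1 library. Among the genes higher in the holding tissues the contrast was Scn9a 5.77, Rfx4 5.00, Akap6 4.49, Fabp7 4.04, Enpp1 3.87, Gdnf 3.82, Insc 3.79, Garem2 3.70 and Lamc3 3.54. A next set had contrasts of Clec11a 3.49, Sgms2 3.36, Clec4a2 3.29, Kcna2 3.14, Plekhb1 3.13, Spock2 3.08, Mgp 3.08, Dok5 3.02, Tent5a 2.91, Clic6 2.87, Cadps 2.62 and Aldh1a3 2.50. Lower still were those of Nfasc 2.46, Ripor2 2.36, Entpd3 2.23, Lrrtm1 2.17, Nt5e 2.11, Nell2 2.09, Tagln 2.07 and Fndc1 2.05. The smallest were those of Atp1b1 1.99, Ednrb 1.94, Vgll3 1.47, Gpc4 1.42, Plcd1 1.29, Igfbp5 1.19, Srgap3 1.14 and Olfml2a 1.13. In the genes lower in the holding tissues the contrast was Gm45837 -6.39 and Aqp3 -4.71. In 4 genes 1 or 2 groups were listed at 0 in all libraries, so that the fitted contrast is no bound, and the adjusted p was Slc36a2 0.0233, Sptssb 0.0387, Ocstamp 0.0396 and Adh7 0.0436.

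The stage values differed among these genes. Nell2, Vgll3 and Srgap3 were near their E13.5 epithelium level in E13.5 mesenchyme, and Igfbp5 was higher in epithelium at both stages.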

How the results depend on the processing

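Over 12 libraries, the numbers of genes higher and lower in the holding tissues (42 and 3) were 697 and 243 with DESeq2, 101 and 11 with limma on log2(FPKM + 0.5), 66 and 8 with log2(FPKM + 0.1), 25 and 1 without a filter on low counts, 26 and 1 with a filter of 1 FPKM in a group, and 97 and 16 with the libraries without a number in their name as a covariate. With the replicate block they were 18 and 1, and with the replicate block by library name 27 and 1. The labels do not say that the numbers pair the samples. Most pairs of same-numbered libraries correlated below 0.1 in their deviations from the group means. The range was -0.17 to 0.11 by replicate and -0.06 to 0.26 by library name. The highest were among the unnumbered libraries of E11.5 epithelium, E13.5 mesenchyme and E11.5 mesenchyme, at 0.26, 0.17 and 0.11, while that of E13.5 epithelium correlated with them at -0.04 to 0.00. With E11.5 epithelium replicates 1 and 2 averaged they were 21 and 1. With the numbered libraries of each group averaged, which left 8 libraries, edgeR called 0 and 0, with 776 and 200 at an unadjusted p under 0.05, and no other tool was run on these 8. Both averages were added after seeing the data. Leaving out 1 library gave 14 to 2126 higher and 1 to 970 lower genes. The crossing numbers (179 and 30) were 107 towards the holding tissues with the 1 FPKM filter, 46 with the numbered libraries averaged, and 106 to 398 with 1 library left out. The other way they were 46 with log2(FPKM + 0.1), 71 with the covariate, 13 and 1 with the 2 averages, 17 with each stage fitted on its own 6 libraries, and 12 to 176 with 1 library left out.

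Without E13.5 epithelium replicate 3, the alternatives were added after seeing the data. The 2126 higher genes were 3405 with the replicate block by library name and 3573 with the covariate, and 917 to 2750 with a further library left out. The 970 lower genes were 1652 with DESeq2, 1740 with limma at 0.5, 637 without a filter, 522 with the replicate block, 2543 with the replicate block by library name, 2724 with the covariate, and 239 to 1898 with a further library left out. The lowest of these numbers were those without E13.5 epithelium replicate 2, which leaves replicate 1 as the lone library of its group, assumed to vary like the others. The crossing numbers (398 and 130) were 693 and 535 with the replicate block by library name and 729 and 586 with the covariate. They were 196 and 199 the other way with limma at 0.5 and 0.1, and with a further library left out 274 to 564 and 65 to 444. The cause of these shifts was not tested. Over the named genes, alternatives kept direction and side of the threshold in 2336 values, lost the call in 79 and gained it in 152. In 1, Dusp1, the sign changed with a call, at 1.16 without E13.5 epithelium replicate 3, against -0.02 over 12 libraries and a range of -0.43 to 1.16 with 1 library left out.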

Other observations

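Gfra1, the co-receptor of Gdnf, was looked at after Gdnf had been seen among the called genes. It was at 3.95, 3.68 and 3.34 FPKM in E11.5 epithelium, against 2.13, 2.65 and 2.75 FPKM in E11.5 mesenchyme, and at 11.3 FPKM or more in E13.5 mesenchyme, against 5.17, 5.02 and 9.23 FPKM in E13.5 epithelium. The groups did not overlap at either stage. The contrast was 1.50 (adjusted p = 0.0653), and 1.86 without E13.5 epithelium replicate 3 (adjusted p = 0.000295).

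Gja1, a gap junction gene chosen after its values were seen, was among the 30 genes that crossed the other way. It was at 22.1, 21.2 and 20.4 FPKM in E11.5 epithelium and 18.9, 16.8 and 14.7 FPKM in E13.5 mesenchyme, against 32.0, 31.0 and 31.7 FPKM in E11.5 mesenchyme and 30.7, 38.3 and 17.4 FPKM in E13.5 epithelium. Without the last of these libraries the groups did not overlap at either stage. Its contrast was -1.33 (adjusted p = 0.0945), and -1.59 without that library (adjusted p = 0.000486).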
